A study of Mus musculus with 12 samples.

Results

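Cytochrome P450 genes of families 1 to 4 were followed across normal liver and liver tumors of wild-type mice and of knockouts of Setd2, the gene of a histone methyltransferase. They were taken as every entry of the expression tables whose gene name starts with Cyp, a family number from 1 to 4, a subfamily letter and a digit, and where a name was repeated the entry with the highest mean was kept. This gave 83 of the 24553 entries, in 21 subfamilies, of which 59 were tested, having an FPKM no lower than 1 in 3 libraries or more out of 12. FPKM (fragments per kilobase and sequencing depth) is a level per transcript length, so levels of different genes can be set side by side. Of the 83 entries 5 are annotated as pseudogenes, Cyp2d13 and Cyp2d37-ps being the ones tested, and Cyp4x1os is an antisense RNA. A further 3 are shared with other names: Cyp2d11 with the microRNA gene Mir7684, Cyp3a16 with Cyp3a41a, and Cyp4v3 with Klkb1, the gene of plasma prekallikrein.

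The study compared 4 groups of 3 libraries, all from mice aged 8 months. The groups were normal liver of wild-type (WT) male mice that received no diethylnitrosamine (DEN), normal liver of Setd2 knockout (KO) male mice that received none, and liver tumors of WT and of KO mice after DEN. DEN is a liver carcinogen, given here as a single intraperitoneal dose of 25 mg/kg to male mice at 2 weeks of age. Every tumor comes from a DEN-treated mouse and every normal liver from an untreated mouse, so tumor and DEN cannot be told apart. The sample titles call the knockout cKO, and the promoter that drives the deletion is not given in the sources used here.

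Cytochrome P450 enzymes are heme proteins of the endoplasmic reticulum that insert oxygen into their substrates with electrons passed on by P450 reductase. Families 1 to 3 act mainly on drugs, carcinogens and steroids, and family 4 on fatty acids. In the liver their genes are switched by receptors that sense foreign compounds, fatty acids or hormones (AHR, CAR, PXR, PPARA). Many are confined to the pericentral part of the liver lobule, many differ between the sexes under the pulses of growth hormone, and P450 enzymes also turn DEN into its DNA-damaging form.

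Many P450 genes are recent copies of each other, which bears on every value below. Cyp2a4 and Cyp2a5, both on chromosome 7 (Cyp2a4 at chr7:26307169-26315088 and Cyp2a5 at chr7:26835305-26843548, GRCm38), had coding sequences 98.45% identical, with 23 of 1482 positions different. Cyp4a12a and Cyp4a12b were 98.49% identical, Cyp2c67 and Cyp2c69 97.69%, Cyp4a10 and Cyp4a32 97.18%, and Cyp2b9 and Cyp2b13 92.74%. Of 65 genes with a relative in their subfamily, 19 had their nearest relative at 95% identity or more and 35 at 90% or more. How reads shared by such copies were divided is not given in the sources used here, so a level of a copy on its own is less certain than the sum of the copies.

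The regions around the start sites of Cyp2a4 and Cyp2b9, which rose most in WT tumors, are shown with those of their near copies Cyp2a5 and Cyp2b13, because the members of each pair differ at so few bases. All run from 250 bases before to 30 bases after the start site, in RefSeq sequence of GRCm38.p6, and the capitals mark bases substituted between the members of a pair. Cyp2a4 (chr7:26306942-26307221, plus strand) and Cyp2a5 (chr7:26835089-26835368, plus strand) differed by 5 substitutions and an offset of 1 base, and both hold TATAAA.
Cyp2a4: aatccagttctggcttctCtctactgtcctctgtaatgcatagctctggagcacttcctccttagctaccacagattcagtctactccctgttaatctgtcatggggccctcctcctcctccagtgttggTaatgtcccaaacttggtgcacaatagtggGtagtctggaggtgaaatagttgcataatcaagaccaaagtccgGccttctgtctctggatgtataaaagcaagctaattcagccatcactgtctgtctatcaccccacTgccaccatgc
Cyp2a5: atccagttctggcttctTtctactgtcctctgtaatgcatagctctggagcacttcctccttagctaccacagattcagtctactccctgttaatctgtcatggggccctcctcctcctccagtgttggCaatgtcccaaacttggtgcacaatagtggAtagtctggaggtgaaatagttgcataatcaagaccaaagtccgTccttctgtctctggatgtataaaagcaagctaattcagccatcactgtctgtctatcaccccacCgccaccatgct
Cyp2b9 (chr7:26173159-26173438, plus strand) and Cyp2b13 (chr7:26061245-26061524, plus strand) differed by 2 substitutions.
Cyp2b9: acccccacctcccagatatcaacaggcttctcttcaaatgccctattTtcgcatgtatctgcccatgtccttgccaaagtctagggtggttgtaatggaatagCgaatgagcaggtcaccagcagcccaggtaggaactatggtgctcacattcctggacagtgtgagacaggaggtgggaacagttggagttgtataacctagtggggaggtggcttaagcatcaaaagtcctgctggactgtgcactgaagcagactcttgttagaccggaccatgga
Cyp2b13: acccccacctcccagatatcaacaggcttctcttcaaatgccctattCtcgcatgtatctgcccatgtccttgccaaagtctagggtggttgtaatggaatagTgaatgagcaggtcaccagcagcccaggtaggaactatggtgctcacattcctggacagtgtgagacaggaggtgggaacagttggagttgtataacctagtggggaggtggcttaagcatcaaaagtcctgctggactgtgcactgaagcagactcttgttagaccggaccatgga

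Among the genes that were lower in tumors, Cyp2e1 and Cyp3a11 are shown as the 2 with the highest level in WT liver. Capitals mark exact matches, on either strand, to TATAAA (the TATA box), AGGTCA (a core motif of nuclear receptors) or CAAAGTCCA (a core motif of HNF4). Cyp2e1 lies at chr7:140763569-140763848, plus strand and Cyp3a11 at chr5:145879825-145880104, minus strand.
Cyp2e1: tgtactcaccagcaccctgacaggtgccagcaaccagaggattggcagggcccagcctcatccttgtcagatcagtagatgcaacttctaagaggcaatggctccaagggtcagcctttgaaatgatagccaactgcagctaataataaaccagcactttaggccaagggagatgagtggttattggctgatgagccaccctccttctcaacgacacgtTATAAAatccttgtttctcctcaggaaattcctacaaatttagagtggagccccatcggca
Cyp3a11: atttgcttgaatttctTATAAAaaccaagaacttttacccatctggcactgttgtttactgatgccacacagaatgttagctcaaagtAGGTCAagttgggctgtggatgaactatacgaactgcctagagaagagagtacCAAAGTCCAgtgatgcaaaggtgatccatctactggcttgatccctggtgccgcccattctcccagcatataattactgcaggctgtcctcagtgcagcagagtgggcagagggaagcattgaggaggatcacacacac
RefSeq windows of 300 bases were found for 64 of the 83 entries, 44 of them tested. TATAAA was present at any position in 23 of the 44 (52.273%) against 13.616% of all 32851 windows in the table. These include matches beginning 40 bases after the start site in Cyp2c40 and at -128 in Cyp2j5. Whether any match works as a TATA box was not tested. AGGTCA was present in 14 (31.818%) against 16.255%, and CAAAGTCCA in 7 (15.909%), namely Cyp2c40, Cyp2c67, Cyp2c68, Cyp2c69, Cyp2c70, Cyp3a11 and Cyp3a16, against 0.475%. Windows of copies are themselves copies, so these shares do not count independent sequences. TTGCNNAA (C/EBP) was found in 12 of the 44 (27.273% against 10.797% of all windows). TTCNNNGAA (STAT5) was found in 2 (4.545% against 8.298%) and GCGTG (the core that AHR binds) in 7 (15.909% against 32.386%). Both strands were searched for each motif.

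Setd2 read 4.84, 3.84 and 4.70 FPKM in WT livers and 1.66, 1.93 and 1.32 in KO livers, without overlap (log2 difference -1.05 ± 0.14, adjusted p = 0.0108). It read 4.40, 3.61 and 4.07 in WT tumors and 3.14, 2.18 and 1.90 in KO tumors, again without overlap, although the tumor difference did not pass the test (log2 difference -0.57 ± 0.19, adjusted p = 0.188). Summed FPKM of 10 hepatocyte markers was 47156 to 55034 in WT liver, 48629 to 52903 in KO liver, 47624 to 56086 in WT tumors and 26378 to 45969.7 in KO tumors, with all 10 expressed. Apoa1 made up much of the sum and rose in WT tumors. Without it the other 9 summed to 38006 to 44117 FPKM in WT liver, 41579 to 42687 in KO liver, 27684.5 to 34150 in WT tumors and 11848 to 31863 in KO tumors, lower in every tumor than in every normal liver. Read depth is not in the tables, so no counting error can be given for any value. Abundant genes can be misread in these tables, since Alb is listed at 0 in 11 of 12 libraries and Gapdh in 1, so an exact 0 is reported as listed at 0.

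KO tumor 3 stood apart from the other KO tumors in the P450 genes. It had the highest value of the 3 KO tumors in 47 of the 59 tested entries, against 35.6% of all tested entries, and the median entry was 1.13 log2 units above the mean of the other KO tumors, against 0.00875 for all tested entries. The main P450 results on KO tumors are given with and without this library. Since it was singled out by its P450 levels, a fall of P450 genes found only without it is a description and supports nothing. KO tumor 2 had the lowest value of the KO tumors in 34 entries, against 30.9% of all tested entries. WT tumor 1 held the highest levels of Cyp2a4, Cyp2b9 and Cyp2b13 among the WT tumors, but the lowest value in 36 of the 59 entries, against 41.6% of all tested entries. Whether replicates are separate animals is not stated outright, so the p-values speak only for the spread among these libraries, which may be technical.

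In WT liver the P450 genes were led by Cyp2e1, which oxidises ethanol and nitrosamines, at 4843 ± 319.5 FPKM (SD, n = 3), 29.9% of the summed P450 level. Cyp3a11, the main drug-oxidising enzyme of its subfamily, followed at 1486 ± 55.9 FPKM, then Cyp2c29 at 1165 ± 182 and Cyp2d9, a male-specific steroid hydroxylase, at 1043 ± 144. The levels of Cyp2c29 and Cyp2d9 overlapped between libraries, while Cyp2e1 lay above all others in each WT liver. In KO liver Cyp2e1 (3788 ± 602 FPKM) and Cyp3a11 (1998 ± 586) were again at the head. In WT tumors the order began with Cyp2a4 at 1885 ± 2106 FPKM and Cyp2e1 at 1571 ± 497, whose ranges overlapped, and in KO tumors with Cyp2a5 at 1461 ± 302 and Cyp2a4 at 1312 ± 854, which overlapped too.

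The sum over all 83 entries was 15831 to 16759.6 FPKM in WT liver and 16127 to 16634 in KO liver. It was 11467, 9294 and 9354 FPKM in the WT tumors, below every normal liver. As a percent of each library's summed FPKM it was 2.22 to 2.47 in WT livers and 2.32, 1.58 and 1.57 in WT tumors, so that WT tumor 1 fell within the range of the WT livers on that scale. In the KO tumors the sum was 6865, 5058 and 15335 FPKM. Libraries 1 and 2 thus lay below all WT tumors and library 3 near the normal livers. As a percent of each library's summed FPKM the KO tumors stood at 1.62, 0.985 and 2.45. On that scale KO tumor 1 lay above WT tumors 2 and 3. The subfamily sums parted in direction, as their plot by library shows.

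**Figure D1:**
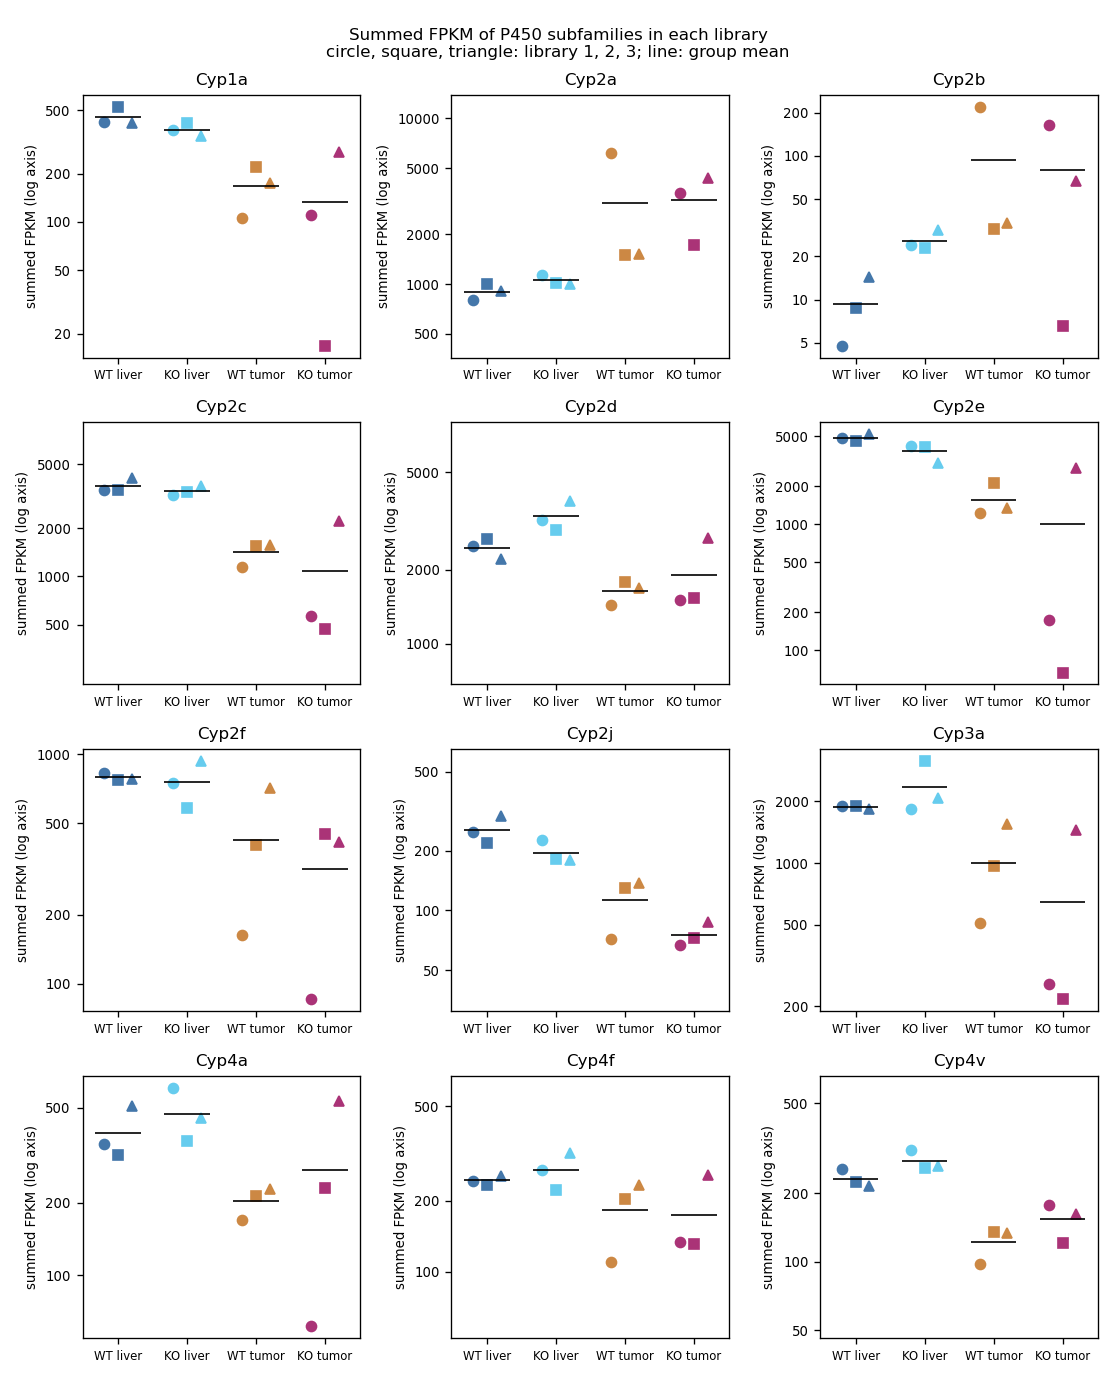
Summed FPKM of 12 P450 subfamilies (log axis) in each of the 12 libraries, with circle, square and triangle for libraries 1, 2 and 3 of a group and a line at the group mean. Sums of Cyp1a, Cyp2c, Cyp2d, Cyp2e, Cyp2f, Cyp2j, Cyp3a, Cyp4a, Cyp4f and Cyp4v are lower in every WT tumor than in every WT liver. For Cyp4f the margin is narrow, at 232 against 233 FPKM. The Cyp2a sum is higher in all tumors than in all normal livers.

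WT tumors had lower levels of many abundant P450 genes than WT liver and far more Cyp2a4 and Cyp2b9. Of the 59 tested entries 26 were called at an adjusted p below 0.05 (44.1%), against 17% of all tested entries. Of these 23 fell, against 8.96% of all tested entries falling, and 3 rose, against 8.01% rising. All WT tumors lay below all WT livers in 30 of the 59 entries, against 23.8% of all tested entries, and above them in 6, against 18.5%. The median log2 difference over the 59 entries was -0.64, against -0.04 over all tested entries. In bulk tissue, fewer cells of a type and less RNA per cell cannot be told apart, and the sum of 9 hepatocyte markers (without Apoa1) was likewise lower in every WT tumor than in every WT liver. The part of this in the P450 values was not tested.

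The Cyp2c subfamily, enzymes on chromosome 19 that oxidise arachidonic acid and drugs, fell most broadly: 8 of its 13 tested members fell and none rose. Its sum was 3459.6, 3477 and 4111 FPKM in WT livers and 1137, 1553 and 1579 in WT tumors. The separation was complete. Cyp2c29 stood at 963, 1214 and 1317 FPKM in WT livers and at 189, 299 and 309 in WT tumors (log2 difference -2.15 ± 0.23, adjusted p = 0.00361). Cyp2c54 stood at 186, 199 and 237 FPKM against 33.4, 51.4 and 42.5 (-2.27 ± 0.18, adjusted p = 0.00139), the largest fall among the P450 genes in this comparison. Cyp2c37 (-1.99 ± 0.21), Cyp2c50 (-1.90 ± 0.21), Cyp2c38 (-1.43 ± 0.29), Cyp2c39 (-1.19 ± 0.16), Cyp2c67 (-1.15 ± 0.18) and Cyp2c44 (-0.99 ± 0.24) fell as well. Cyp2c70, which makes the muricholic acids of mouse bile, had a level of 443 ± 109.8 FPKM in WT tumors against 513 ± 132 in WT liver (-0.21 ± 0.26, adjusted p = 0.584).

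Cyp2e1 read 4800.1, 4546 and 5181 FPKM in WT livers and 1222, 2139.5 and 1352 in WT tumors (-1.67 ± 0.25, adjusted p = 0.00979). The tumors were thus all below the lowest liver, and the ratio of the means was 3.08. Without WT liver 3 the call was lost (-1.62, adjusted p = 0.0535). Cyp1a2, the hepatic AHR target that oxidises caffeine, read 418, 519.8 and 414 FPKM in WT livers and 106, 219 and 175 in WT tumors (-1.48 ± 0.27, adjusted p = 0.0146). It was also lower in every tumor than in every liver, and its call was lost without WT liver 2 (-1.38, adjusted p = 0.0554) or WT liver 3 (-1.54, adjusted p = 0.0599). The other AHR targets, Cyp1a1 and Cyp1b1, had means of 0.199 and 0.170 FPKM in WT liver and were not tested.

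Of the 8 genes listed as pericentral (Cyp1a2, Cyp2a5, Cyp2c29, Cyp2c37, Cyp2c50, Cyp2c54, Cyp2e1 and Cyp3a11), 6 fell in WT tumors and none rose. The shares over all tested entries were 8.96% and 8.01%. Cyp3a11 was lower in mean but did not pass (-1.09 ± 0.42, adjusted p = 0.117), with 356, 746 and 1281 FPKM in the WT tumors against 1483, 1544 and 1432 in the WT livers. All WT tumors lay below all WT livers, the third by the smallest margin. Cyp2a5 did not follow the other pericentral genes (0.29 ± 0.56). Cyp2f2, which oxidises naphthalene and marks the periportal zone, read 163, 400.2 and 711 FPKM in WT tumors against 825, 769.9 and 781 in WT livers, without overlap, and did not pass (-1.14 ± 0.48, adjusted p = 0.139).

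**Figure D2:**
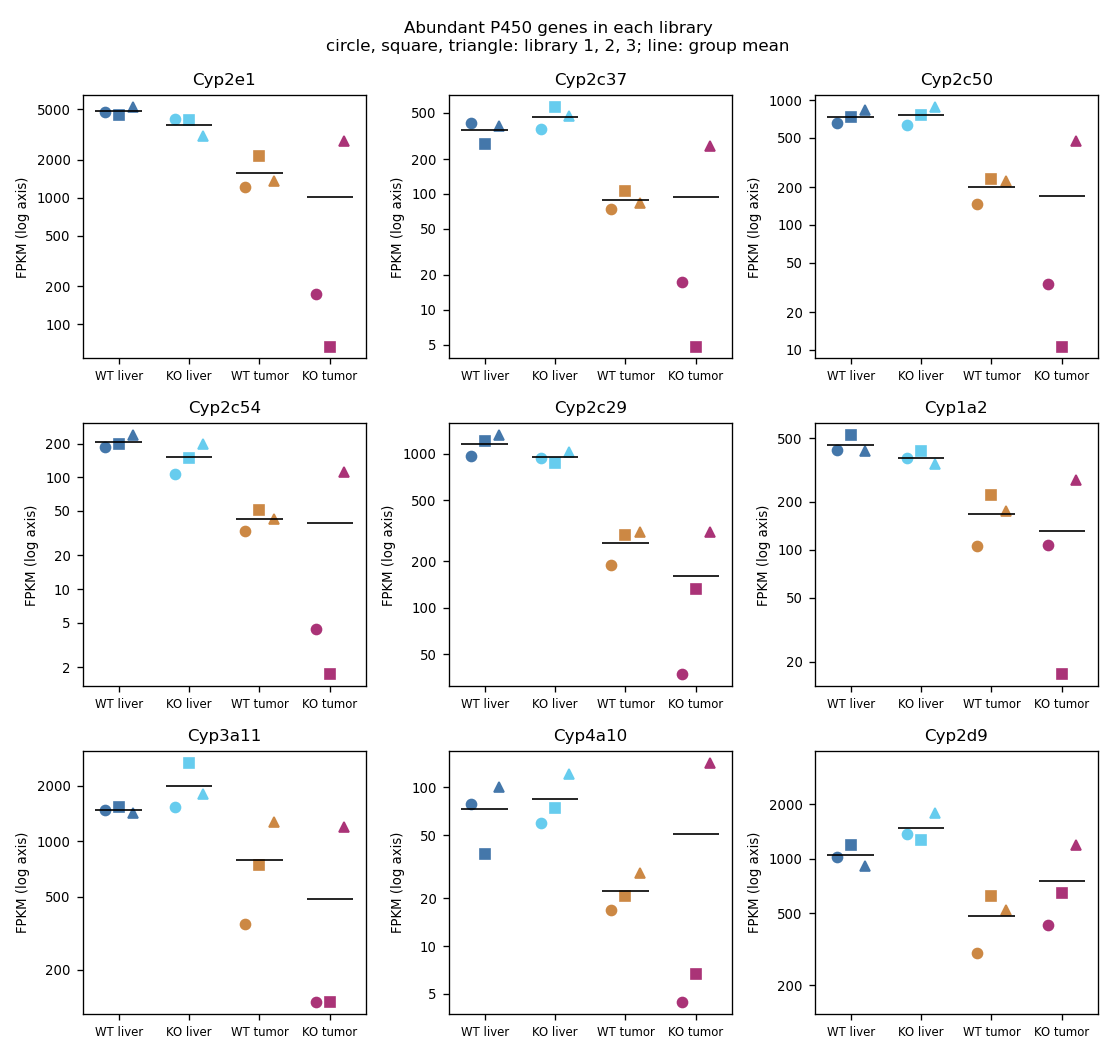
FPKM (log axis) of 9 abundant P450 genes in the 12 libraries, with circle, square and triangle for libraries 1, 2 and 3 of a group and a line at the group mean. WT tumors sit below WT livers for all 9 genes, and KO tumor 3 (triangle) is the highest KO tumor for every gene.

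In the Cyp3a subfamily on chromosome 5, 3 of 6 tested members fell: Cyp3a25 (-1.02 ± 0.24), Cyp3a13 (-0.74 ± 0.20) and the joint entry of Cyp3a16 and Cyp3a41a (-0.99 ± 0.25). In the Cyp4a subfamily, fatty acid hydroxylases under PPARA, 3 of 6 fell. Cyp4a10 read 79.1, 38.3 and 101 FPKM in WT livers and 17.0, 20.7 and 28.9 in WT tumors (-1.59 ± 0.36, adjusted p = 0.0279), with all tumors below all livers. Cyp4a32 (-1.07 ± 0.20) and Cyp4a12a (-0.70 ± 0.18) fell, while Cyp4a14 (-1.39 ± 0.46, adjusted p = 0.0799) did not pass. Cyp4a31, a near copy of Cyp4a10, had higher values in WT tumors (13.3, 6.08 and 5.21 FPKM) than in WT livers (2.86, 4.35 and 3.31) without overlap and without passing (0.94 ± 0.32, adjusted p = 0.0827). The sum of Cyp4a10, Cyp4a31 and Cyp4a32 was lower in WT tumors (38.3, 34.0 and 41.9 FPKM) than in WT livers (99.0, 55.5 and 127).

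The Cyp2d subfamily on chromosome 15 split. Cyp2d12 (-1.31 ± 0.17), Cyp2d9 (-1.17 ± 0.28), Cyp2d40 (-1.03 ± 0.23) and Cyp2d22 (-0.54 ± 0.12) fell, while Cyp2d26, the second most abundant member, read 598 ± 43.2 FPKM in WT tumors against 625 ± 31.6 in WT liver (-0.07 ± 0.14). Cyp2d9 read 1026, 1195 and 908 FPKM in WT livers and 301, 622 and 521 in WT tumors, without overlap. Cyp2j5, an epoxygenase of arachidonic acid, fell (-1.41 ± 0.29, adjusted p = 0.0214), as did the joint entry of Cyp4v3 and Klkb1 (-0.93 ± 0.17, adjusted p = 0.0142) and Cyp2b10, the classic target of CAR (-1.56 ± 0.31, adjusted p = 0.0198), which stood at 2.41, 5.98 and 5.55 FPKM in WT livers and 1.12, 0.366 and 1.08 in WT tumors. For the joint entry, which of its genes moved cannot be told apart.

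Cyp2a4, a steroid hydroxylase that is higher in female than in male liver, had the largest rise. It read 10.2, 9.998 and 14.1 FPKM in WT livers and 4315, 583 and 757 in WT tumors (6.66 ± 0.69, adjusted p = 0.00346). The lowest tumor was far above the highest liver. WT tumor 1 was the highest, and without it the log2 difference was 5.76, adjusted p = 0.000163. Its near copy Cyp2a5, a coumarin hydroxylase, read 359.7, 563 and 464 FPKM in WT livers and 1387, 482 and 255 in WT tumors, which overlapped (0.29 ± 0.56, adjusted p = 0.746). The sum of the 2 copies, which depends less on how their shared reads were divided, was 369.8, 573 and 478 FPKM in WT livers and 5702, 1064 and 1011 in WT tumors. All WT tumors exceeded all WT livers in the sum, and Cyp2a4 made up 2.75, 1.75 and 2.94 percent of it in the WT livers and 75.7, 54.7 and 74.8 percent in the WT tumors.

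Cyp2b9, a female-biased gene of the CAR-regulated subfamily, read 2.35, 2.63 and 8.29 FPKM in WT livers and 162, 28.9 and 26.8 in WT tumors (3.41 ± 0.72, adjusted p = 0.0233). The call was lost without WT liver 1 (3.14, adjusted p = 0.0714), WT liver 2 (3.20, adjusted p = 0.0789) or WT liver 3 (3.88, adjusted p = 0.0551). Cyp2b13, with a promoter window almost identical to that of Cyp2b9, read 0.0275, 0.0956 and 0.572 FPKM in WT livers and 55.4, 1.52 and 5.96 in WT tumors and did not pass (a log2 difference of 3.04, adjusted p = 0.079). WT tumor 1 again held the highest value. Cyp4f16 rose (1.60 ± 0.14, adjusted p = 0.00187) from 0.685, 1.05 and 0.741 FPKM in WT livers to 5.13, 4.39 and 4.05 in WT tumors. Its level was low in both groups but did not overlap.

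**Figure D3:**
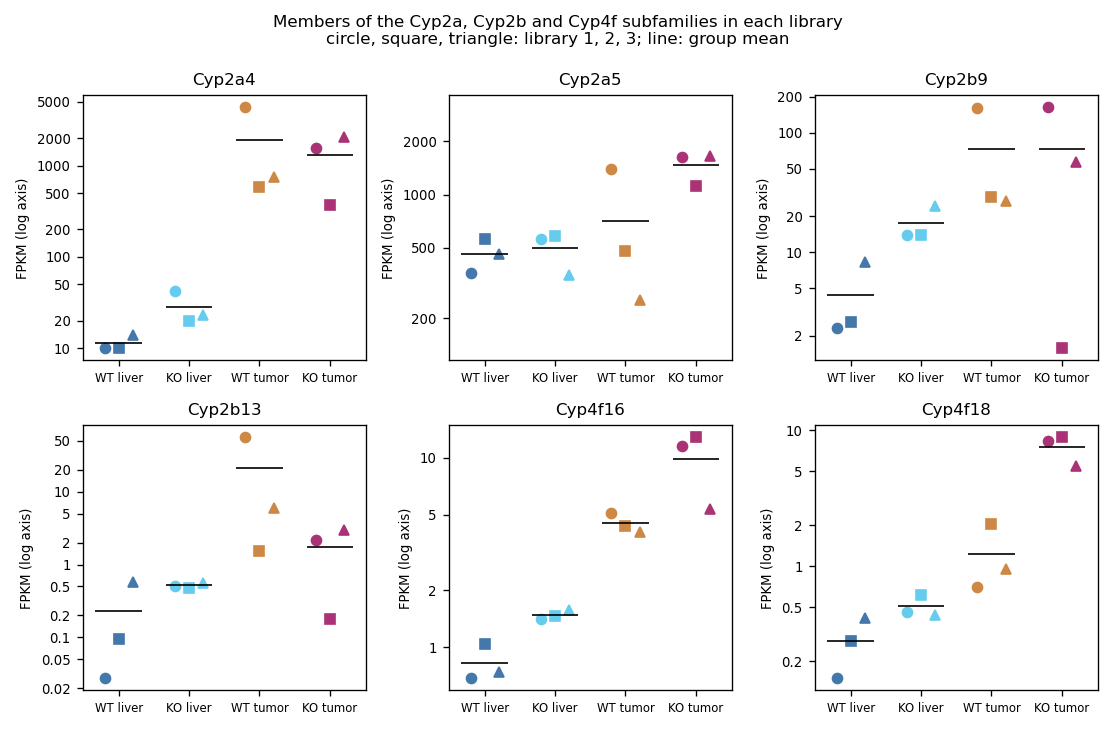
FPKM (log axis) of Cyp2a4, Cyp2a5, Cyp2b9, Cyp2b13, Cyp4f16 and Cyp4f18 in the 12 libraries, with circle, square and triangle for libraries 1, 2 and 3 of a group and a line at the group mean. All 6 tumors exceed all 6 normal livers for Cyp2a4, Cyp4f16 and Cyp4f18, while KO tumor 2 is the lowest tumor for Cyp2b9.

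Of 10 tested genes listed as female-biased, 2 rose in WT tumors (Cyp2a4 and Cyp2b9) and 3 fell (Cyp2b10, Cyp2c39 and the joint entry of Cyp3a16 and Cyp3a41a). Of 3 male-biased genes, Cyp2d9 and Cyp4a12a fell, while Cyp4a12b did not pass (-0.76 ± 0.25, adjusted p = 0.0794). The near copies Cyp4a12a and Cyp4a12b summed to 203, 239 and 289 FPKM in WT livers and 116, 166 and 161 in WT tumors, without overlap. Of 6 targets of CAR and PXR 4 fell and none rose, and of 6 PPARA targets 3 fell and none rose. Over all tested entries 8.96% fell and 8.01% rose, against which each of these list counts can be read.

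Leaving out each of the 6 libraries in turn, 10 of the 26 calls held every time: Cyp2a4, Cyp4f16, Cyp2c29, Cyp2c37, Cyp2c39, Cyp2c50, Cyp2c54, Cyp2c67, Cyp2d12 and Cyp4a32. The number of calls fell to 15 without WT liver 1, 16 without WT liver 2 and 10 without WT liver 3. Scaled to a common sum per library, the median of all tested entries moved from -0.04 to 0.21 in this comparison, and 4 P450 entries rose and 19 fell. Of all tested entries 1607 were then called higher and 400 lower, against 935 called higher and 1046 called lower in FPKM.

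In normal liver the knockout went with higher levels of 9 P450 entries, led by Cyp2b9, Cyp2j9 and Cyp2a4, and a lower level of Cyp4a31. Of the 59 entries 10 were called (16.9%), against 18.1% of all tested entries, so the share called was near the background. Of the 10, 9 rose, against 9.33% of all tested entries rising, and 1 fell, against 8.77% falling. With quantile normalization 7 rose and 2 fell. The groups did not overlap in 24 entries, against 42.6% of all tested entries, with 17 higher in KO liver, against 21.9%, and 7 lower, against 20.7%. An unadjusted p below 0.05 was found in 23 entries, against 37.6% of all tested entries. The median difference was 0.19 log2 units, against 0.03 over all tested entries. Among subfamilies with a tested member, the sums of Cyp2b, Cyp2d, Cyp2u, Cyp4b and Cyp4v were higher in every KO liver than in every WT liver. Cyp2e1 was lower.

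Cyp2b9 had the largest rise, from 2.35, 2.63 and 8.29 FPKM in WT livers to 13.9, 13.95 and 24.5 in KO livers (1.88 ± 0.41, adjusted p = 0.0279). The groups did not overlap, although WT liver 3 was well above the other WT livers. Cyp2a4 read 42.3, 20.1 and 22.9 FPKM in KO livers against 10.2, 9.998 and 14.1 in WT livers (1.19 ± 0.28, adjusted p = 0.0326), also without overlap. Both genes are female-biased, and 2 of the 10 tested genes of that list rose and none fell in male KO liver. Over all tested entries 9.33% rose and 8.77% fell. Cyp2b10 (0.68 ± 0.31, adjusted p = 0.159) and Cyp2b13 (0.33 ± 0.16, adjusted p = 0.188) did not pass. The male-biased Cyp2d9 (0.50 ± 0.18, adjusted p = 0.0881), Cyp4a12a (0.33 ± 0.31, adjusted p = 0.463) and Cyp4a12b (-0.08 ± 0.32, adjusted p = 0.871) did not pass.

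In the Cyp2d subfamily 3 of 10 rose: Cyp2d10 (0.62 ± 0.14, adjusted p = 0.0287), Cyp2d22 (0.48 ± 0.12, adjusted p = 0.0409) and Cyp2d12 (0.47 ± 0.12, adjusted p = 0.0413). The summed Cyp2d level was 2503, 2669 and 2209 FPKM in WT livers and 3199, 2910.3 and 3800.3 in KO livers. The highest WT liver was below the lowest KO liver. Cyp2j9 rose from 2.83, 2.75 and 2.87 to 4.5004, 10.9 and 10.5 FPKM (1.25 ± 0.29, adjusted p = 0.0319). Cyp4f13 (0.90 ± 0.21, adjusted p = 0.0324) and Cyp4f16 (0.45 ± 0.11, adjusted p = 0.0395) rose in the Cyp4f subfamily. Cyp2c68 rose from 186, 130.0 and 150.3 to 267, 265 and 321 FPKM (0.88 ± 0.16, adjusted p = 0.0183), while its near copy Cyp2c67 read 300.2, 197 and 209.8 FPKM in WT livers and 179.6, 147 and 145 in KO livers (-0.56 ± 0.18, adjusted p = 0.0712). The sum of Cyp2c67, Cyp2c68 and Cyp2c69 was 497, 333 and 370.2 FPKM in WT livers and 458, 421 and 482 in KO livers, which overlapped.

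Cyp4a31 fell from 2.86, 4.35 and 3.31 FPKM in WT livers to 1.84, 2.13 and 1.03 in KO livers (-0.77 ± 0.20, adjusted p = 0.043). The sum of the near copies Cyp4a10, Cyp4a31 and Cyp4a32 was 99.0, 55.5 and 127 FPKM in WT livers and 82.5, 93.2 and 141 in KO livers, which overlapped. None of the 8 pericentral genes passed in KO liver, where 18.1% of all tested entries were called. Cyp2e1 read 4167, 4103 and 3093 FPKM in KO livers against 4800.1, 4546 and 5181 in WT livers (-0.37 ± 0.17, adjusted p = 0.157). Cyp1a2 read 373, 414 and 343 FPKM against 418, 519.8 and 414 (-0.25 ± 0.14, adjusted p = 0.221). Cyp2e1 was lower in each KO liver than in any WT liver, while for Cyp1a2 the highest KO liver and the lowest WT liver were level. Cyp2u1, a fatty acid hydroxylase, read 7.02, 10.8 and 26.5 FPKM in KO livers against 5.75, 4.33 and 2.11 in WT livers and did not pass (1.51 ± 0.47, adjusted p = 0.0651). It was highest in KO liver 3. No call in this comparison held through the omission of each library in turn. The number of calls was 3 without WT liver 1, 1 without WT liver 2, 1 without WT liver 3, 6 without KO liver 2 and 2 without KO liver 3.

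**Figure D4:**
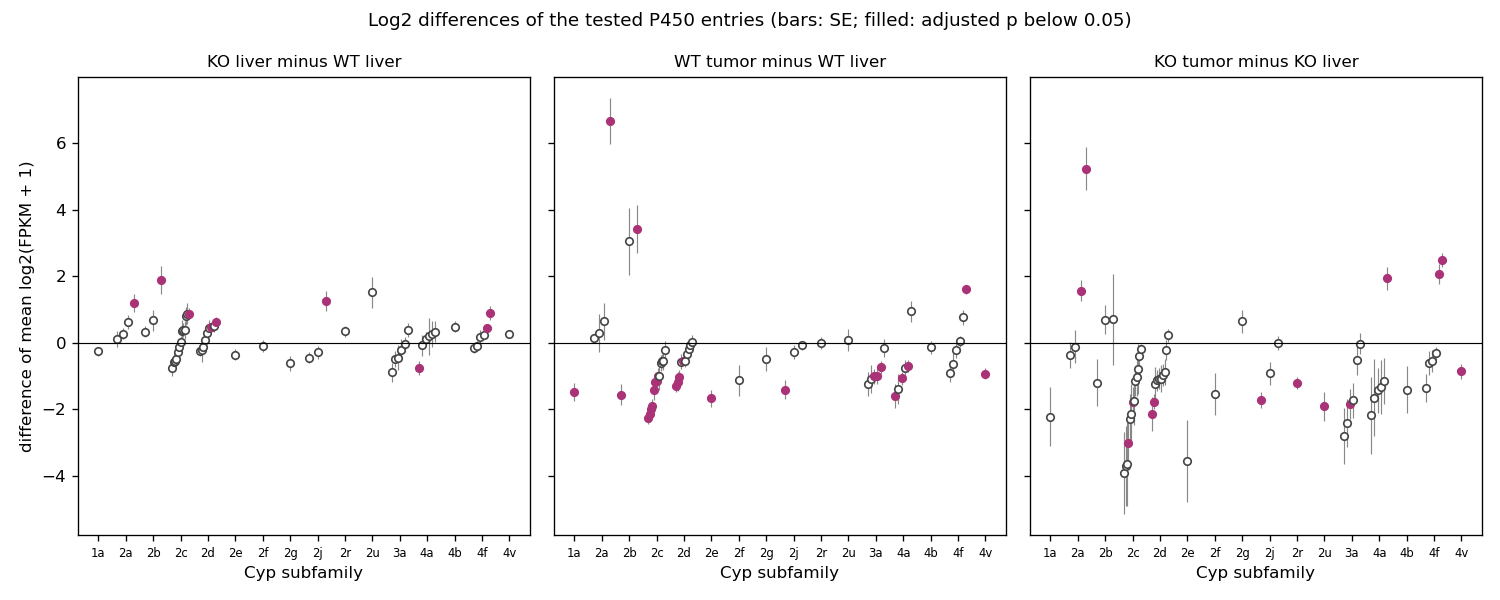
Log2 differences (points, with SE bars) of the 59 tested P450 entries by subfamily for KO against WT liver, WT tumor against WT liver and KO tumor against KO liver, with entries at an adjusted p below 0.05 filled. Most Cyp2c points lie below 0 in both tumor panels, Cyp2a4 is the highest point in both, and the SE bar of Cyp2e1 is wider in the KO tumor panel than in the others.

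KO tumors had more Cyp2a4, Cyp2a5 and Cyp4f16 and less Cyp2c29 than KO liver, with a wide spread between the tumors. Of the 59 entries 14 were called (23.7%), against 14.3% of all tested entries. Of these 5 rose, against 9.09% of all tested entries rising, and 9 fell, against 5.17% falling. All KO tumors lay below all KO livers in 25 entries, against 19.8% of all tested entries, and above them in 5, against 21.3%, which makes 30 without overlap, against 41.1%. With an unadjusted p below 0.05 there were 34 entries, against 33.7% of all tested entries. The median log2 difference was -1.15, against -0.02 over all tested entries. Without KO tumor 3 there were 38 calls (64.4%), against 25.5% of all tested entries: 5 rose, against 13.5% of all tested entries, and 33 fell, against 12%, with a median of -1.58. All 14 entries called with KO tumor 3 were also called in the same direction without it. That library was singled out by its P450 levels, so the kept calls are no independent check.

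Cyp2e1 read 4167, 4103 and 3093 FPKM in KO livers and 173, 66.6 and 2796 in KO tumors. KO tumors 1 and 2 lay far below every other library of the study, and KO tumor 3 lay just under the lowest KO liver. With all 3 tumors the difference did not pass (-3.55 ± 1.23, adjusted p = 0.0919), and without KO tumor 3 it was -5.11 ± 0.42, adjusted p = 0.00193. Cyp2c50 read 635, 763 and 873 FPKM in KO livers against 33.9, 10.6 and 470.4 in KO tumors (-3.71 ± 1.20, adjusted p = 0.0782 with all, -5.22 ± 0.46, adjusted p = 0.00232 without KO tumor 3). Cyp2c37 and Cyp2c54 had the same shape, with 17.3, 4.81 and 259 and 4.38, 1.73 and 112 FPKM in KO tumors. Together Cyp2c37, Cyp2c50 and Cyp2c54 summed to 1106, 1469.9 and 1540.1 FPKM in the KO livers and 55.6, 17.2 and 841 in the KO tumors.

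Cyp3a11 read 1538, 2658 and 1798 FPKM in KO livers and 134, 133 and 1192 in KO tumors (-2.81 ± 0.83, adjusted p = 0.063 with all, -3.86 ± 0.28, adjusted p = 0.00158 without KO tumor 3). Cyp1a2 read 373, 414 and 343 FPKM in KO livers and 107, 16.6 and 272 in KO tumors, with KO tumor 2 lowest (-2.23 ± 0.89, adjusted p = 0.128 with all, -3.11 ± 0.71, adjusted p = 0.025 without KO tumor 3). Cyp4a10 and Cyp4a14 were above every KO liver in KO tumor 3 and below every KO liver in the other tumors, at 4.42, 6.67 and 142 and 2.95, 11.6 and 119 FPKM. Hepatocyte marker sums were lowest in the same libraries, at 26378 and 28067 FPKM in KO tumors 1 and 2 and 45969.7 in KO tumor 3, and their part in these values was not tested.

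The genes that fell in KO tumors with all libraries were led by Cyp2c29, at 945, 872 and 1022 FPKM in KO livers and 37.0, 133 and 311 in KO tumors (-3.02 ± 0.69, adjusted p = 0.0322). All KO tumors were below all KO livers. Cyp2d40 (-2.15 ± 0.51, adjusted p = 0.0354), Cyp2d13 (-1.77 ± 0.23, adjusted p = 0.00962), Cyp2c55 (-1.77 ± 0.44, adjusted p = 0.0402), Cyp3a44 (-1.84 ± 0.44, adjusted p = 0.0364), Cyp2j5 (-1.72 ± 0.24, adjusted p = 0.0109), Cyp2u1 (-1.91 ± 0.43, adjusted p = 0.0304) and the joint entry of Cyp4v3 and Klkb1 (-0.86 ± 0.23, adjusted p = 0.0485) fell as well. Cyp2r1, which adds the hydroxyl group that starts vitamin D activation, read 9.91, 13.4 and 12.1 FPKM in KO livers and 4.86, 3.71 and 4.91 in KO tumors (-1.22 ± 0.18, adjusted p = 0.0122). Here KO tumor 3 did not stand apart.

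Among the rises, Cyp2a4 went from 42.3, 20.1 and 22.9 FPKM in KO livers to 1538, 368 and 2031 in KO tumors (5.23 ± 0.64, adjusted p = 0.00807). Cyp2a5 also rose, from 564, 584 and 353 to 1622, 1113 and 1648 FPKM (1.56 ± 0.32, adjusted p = 0.0248). Their sum was 606, 604 and 376 FPKM in KO livers and 3160.3, 1482 and 3679 in KO tumors, so each KO tumor exceeded each KO liver. Cyp2a4 made up 6.97, 3.33 and 6.10 percent of the sum in KO livers and 48.7, 24.9 and 55.2 percent in KO tumors. Cyp2b9 did not pass (0.70 ± 1.36, adjusted p = 0.753), and its levels in KO tumors were 162, 1.57 and 57.1 FPKM, on both sides of the KO livers.

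Cyp4f18, a leukotriene hydroxylase known from neutrophils, rose from 0.463, 0.619 and 0.442 FPKM in KO livers to 8.35, 8.88 and 5.47 in KO tumors (2.48 ± 0.20, adjusted p = 0.00364). Cyp4f16 rose from 1.40, 1.46 and 1.58 to 11.5, 12.8 and 5.35 FPKM (2.06 ± 0.30, adjusted p = 0.012) and Cyp4a31 from 1.84, 2.13 and 1.03 to 11.98, 4.97 and 11.9 FPKM (1.93 ± 0.34, adjusted p = 0.0175). In these 3 genes every KO tumor exceeded every KO liver. Cyp4f18 reached an FPKM of 1 in 4 libraries, the KO tumors and WT tumor 2, so it was tested only because it is high there, and its tests are not independent of that choice. For Cyp4a31 the sum with its near copies Cyp4a10 and Cyp4a32 did not rise, at 82.5, 93.2 and 141 FPKM in KO livers and 19.5, 13.97 and 188 in KO tumors, which lay on both sides of the livers. Neutrophil markers, of which 3 of 5 were tested and none passed, summed to 8.02 to 38.7 FPKM in KO livers and 20.9 to 54.3 in KO tumors. The same sum was 6.70 to 27.3 FPKM in WT livers and 8.52 to 9.72 in WT tumors, and its part in the Cyp4f18 values was not tested.

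Of the 14 calls, Cyp2a4 and Cyp4f18 held without each library in turn. Cyp4f18 was tested only because it is high in the KO tumors and WT tumor 2, so its holding is not independent of that choice. The number of calls was 7 without KO liver 1, 2 without KO liver 2, 2 without KO liver 3, 8 without KO tumor 1 and 38 without KO tumor 3. Scaled to a common sum per library, the median of all tested entries moved from -0.02 to 0.34, and 5 P450 entries rose and 7 fell. Of all tested entries 1686 were then called higher and 260 lower, against 1061 called higher and 603 called lower in FPKM.

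**Figure D5:**
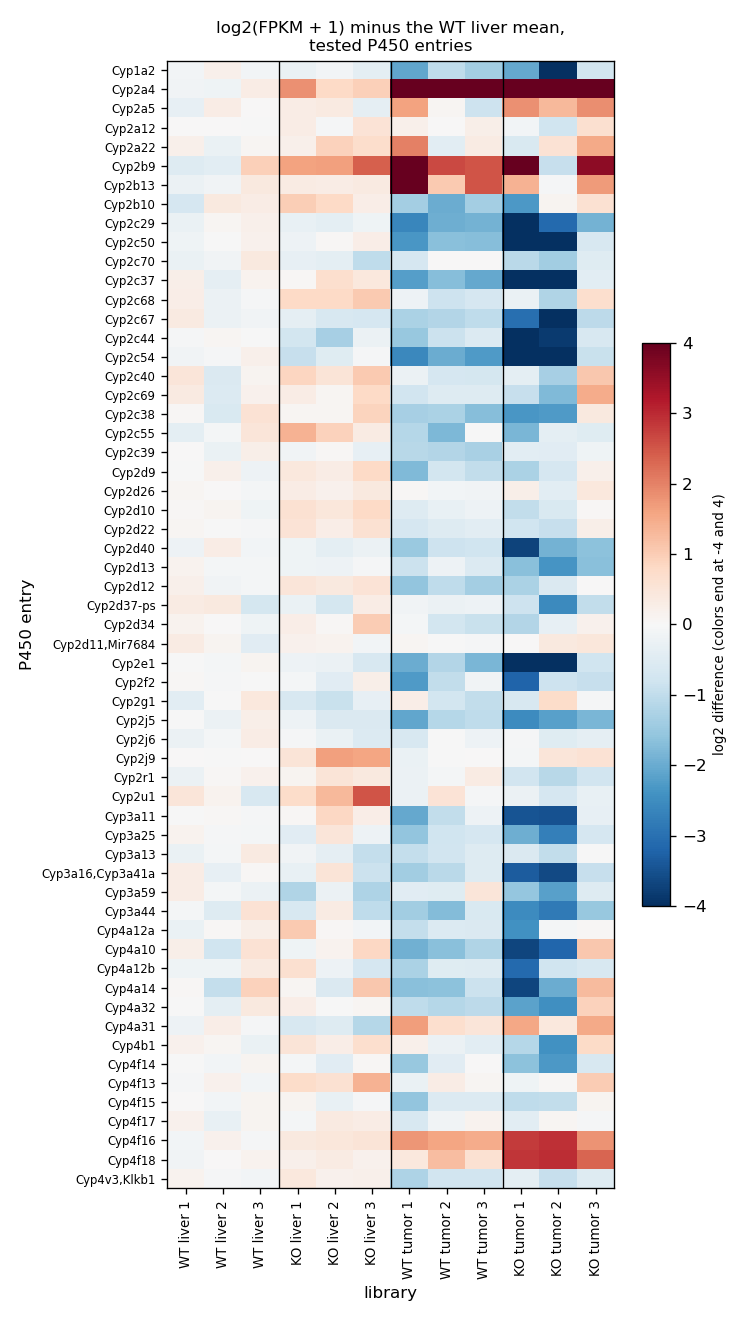
Each row is a tested P450 entry and each column a library. Color gives log2(FPKM + 1) minus the mean of the WT livers, from -4 (blue) to 4 (red). The Cyp2e1, Cyp2c37, Cyp2c50, Cyp2c54 and Cyp3a11 rows are darkest blue in KO tumors 1 and 2 and paler in KO tumor 3, and the Cyp2a4 row is red in all 6 tumors.

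The tumor comparisons of the 2 genotypes use different libraries and can be set against each other. The 26 entries called in WT mice and the 14 called in KO mice shared 6 of the same direction, which is 23.1% of the former and 42.9% of the latter, against 24.8% and 29.6% among all tested entries: Cyp2a4, Cyp4f16, Cyp2c29, Cyp2d40, Cyp2j5 and the joint entry of Cyp4v3 and Klkb1. Differences had the same sign in 54 of 59 entries, against 65.8% of all tested entries. All 23 entries that fell in WT tumors had a negative difference in KO tumors, against 80.1% of all tested entries that fell in WT tumors.

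Between KO and WT tumors no P450 entry passed (0 of 59), against 0.0771% of all tested entries, 0.0343% up and 0.0428% down. With limma 9 of the 59 had an unadjusted p below 0.05, against 17.6% of all tested entries. Cyp4f18 came nearest, at 8.35, 8.88 and 5.47 FPKM in KO tumors against 0.703, 2.03 and 0.958 in WT tumors (1.96 ± 0.28, adjusted p = 0.0512), with no overlap. The groups did not overlap in 8 entries, against 23.9% of all tested entries, with 3 higher in KO tumors, against 13.8%, and 5 lower, against 10.1%. Cyp4f16 (0.91 ± 0.31) and Cyp2c39 (0.84 ± 0.16) were likewise higher in every KO tumor than in every WT tumor. Cyp2r1 (-0.88 ± 0.20), Cyp2d13 (-1.36 ± 0.27), Cyp2d40 (-1.38 ± 0.54), Cyp2d37-ps (-1.26 ± 0.44) and Cyp3a59 (-1.26 ± 0.45) were lower in every KO tumor. Without KO tumor 3 there were 11 calls, against 2.28% of all tested entries, of which 2 rose (1.4% of all tested entries) and 9 fell (0.883%). KO tumor 3 was singled out by its P450 levels, so these calls are a description only. Leaving out any of the other 5 libraries gave 0 calls. The 9 were Cyp2e1 (-3.81 ± 0.48), Cyp2c37 (-3.10 ± 0.49), Cyp2c50 (-3.29 ± 0.50), Cyp2c54, Cyp2c67, Cyp2c44, Cyp4a10, Cyp4a32 and the joint entry of Cyp3a16 and Cyp3a41a, and the 2 were Cyp4f16 and Cyp4f18. None of these 11 passed with KO tumor 3 included, and the median over the 59 entries was -0.17 with it and -0.75 without it. Without KO tumor 1 or KO tumor 2 the median was 0.07 or 0.08, so its sign depends on which KO tumors are used.

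The effect of the knockout differed between tumor and normal liver in 2 entries (3.39%), against 2.08% of all tested entries. An unadjusted p below 0.05 was found in 6 entries, against 22.3% of all tested entries. Cyp4f18 had a log2 difference of 0.24 ± 0.11 between KO and WT liver and of 1.96 ± 0.28 between KO and WT tumors, and the difference of the differences was 1.72 ± 0.32, adjusted p = 0.0308, against 1.15% of all tested entries being called in this direction. This gene passed the filter on low values only through tumors, 3 of them KO tumors. Cyp2r1 had 0.34 ± 0.16 in liver and -0.88 ± 0.20 in tumors (-1.22 ± 0.26, adjusted p = 0.0422), against 0.934% called in that direction. Its level was 7.53, 8.48 and 11.5 FPKM in WT tumors and 4.86, 3.71 and 4.91 in KO tumors. Neither call held when each library was left out in turn: there were 0 calls without WT liver 2 or 3, KO liver 2 or 3, WT tumor 3 or KO tumor 1, 1 without WT liver 1, WT tumor 2 or KO tumor 2, and 3 without KO liver 1 or WT tumor 1. Without KO tumor 3 there were 18 calls, 3 up and 15 down, against 11.7% of all tested entries in all, 5.84% up and 5.88% down. Since that library was singled out by its P450 levels, these 18 calls are a description and support nothing.

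Among 16 genes of electron transfer and heme turnover, 7 fell and none rose in WT tumors against WT liver, where 8.96% of all tested entries fell and 8.01% rose. They included Por, the P450 reductase, at 258 ± 32.1 FPKM in WT liver and 89.0 ± 27.5 in WT tumors (-1.57 ± 0.25, adjusted p = 0.011), and Alas1, the rate-limiting enzyme of heme synthesis (-1.55 ± 0.37, adjusted p = 0.0336), with Alad (-1.28 ± 0.21) and Cpox (-0.96 ± 0.17) of the same pathway, while Ppox of that pathway read 11.6 ± 1.85 FPKM in WT liver and 14.6 ± 1.57 in WT tumors (0.32 ± 0.15, adjusted p = 0.179). In KO liver against WT liver 3 rose and 2 fell, against 9.33% and 8.77% of all tested entries, with Por at 99.7 ± 63.4 FPKM (-1.53 ± 0.38, adjusted p = 0.0374) and Blvrb, a biliverdin reductase, higher (0.86 ± 0.14, adjusted p = 0.0137). In KO tumors against KO liver Cyb5b (-1.96 ± 0.38, adjusted p = 0.0224) and Cpox (-1.25 ± 0.29, adjusted p = 0.0333) fell and none rose, against 5.17% and 9.09% of all tested entries. None of the 16 passed between KO and WT tumors or in the interaction, where 0.0771% and 2.08% of all tested entries were called.

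Among 25 tested receptors and regulators of P450 genes, 8 fell in KO against WT liver and none rose, against 8.77% and 9.33% of all tested entries. They included Bcl6, a repressor of female-biased genes in male liver, at 14.4 ± 4.19 FPKM in WT liver and 2.45 ± 0.449 in KO liver (-2.13 ± 0.21, adjusted p = 0.00559) and Ppara (-1.46 ± 0.17, adjusted p = 0.008). Ahr, Cebpb, Hnf4a and Rxra were also among them. In WT tumors against WT liver 10 fell and none rose, against 8.96% and 8.01% of all tested entries, with Nr1i3, the gene of CAR, at 77.1 ± 14.7 FPKM in WT liver and 27.1 ± 1.20 in WT tumors (-1.46 ± 0.15, adjusted p = 0.00346), Ppara (-1.21 ± 0.16, adjusted p = 0.00652) and Ghr, the growth hormone receptor (-1.04 ± 0.17, adjusted p = 0.0117). In KO tumors against KO liver Cebpa (-0.84 ± 0.22, adjusted p = 0.0462) and Ghr (-1.80 ± 0.47, adjusted p = 0.0471) fell, against 5.17% of all tested entries. None passed between KO and WT tumors, where 0.0771% of all tested entries were called.

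Cholangiocyte markers (6 of 6 found) summed to 35.9 to 129 FPKM in WT livers, 70.1 to 77.6 in KO livers, 63.7 to 640.2 in WT tumors and 267 to 3519.5 in KO tumors, with KO tumor 2 highest. Spp1 made up most of this sum, and the other 5 summed to 2.32 to 4.82, 3.52 to 10.9, 3.18 to 8.25 and 9.39 to 15 FPKM in the same order of groups, with Krt19 higher in KO tumor 3 than in KO tumor 2. Stellate cell and fibroblast markers (7 of 7) ranged over 40.4 to 62.2, 68.9 to 114, 58.2 to 69.9 and 128 to 184 FPKM in the same order of groups. Macrophage markers (7 of 7) ranged over 121 to 185, 115 to 155, 46.7 to 197 and 92.3 to 353, and endothelial markers (6 of 6) over 94.0 to 112, 88.7 to 122, 58.1 to 102 and 53.7 to 99.1 FPKM. B and plasma cell markers (5 of 5) ranged over 1.05 to 3.22, 3.04 to 8.94, 22.9 to 56.7 and 6.37 to 18.8, and T and NK cell markers (5 of 6) over 0.785 to 3.05, 1.77 to 3.47, 2.40 to 11.8 and 3.28 to 18.4 FPKM. Among the markers, Sox9 rose in WT tumors (1.27 ± 0.27, adjusted p = 0.0229) and in KO tumors (1.83 ± 0.40, adjusted p = 0.0293), each against liver of its genotype. Against the same livers Spp1 rose in KO tumors (3.57 ± 0.86, adjusted p = 0.037) and Col1a1 in both (1.20 ± 0.24 and 3.79 ± 0.46). Lrat, a stellate cell marker, was lower, at 1.11, 0.701 and 1.05 FPKM in WT tumors against 1.29, 1.62 and 1.32 in WT livers. Lrat also read 1.29, 0.519 and 1.56 FPKM in KO tumors against 1.85, 2.19 and 2.89 in KO livers. Other markers lay apart too. Krt19 of the cholangiocyte list was lower in WT tumors, at 0.483, 0.168 and 0.555 FPKM against 0.985, 1.16 and 0.602 in WT livers. Between KO tumors and KO livers Krt19 overlapped. Jchain read 29.8, 21.0 and 53.9 FPKM in WT tumors against 2.15, 2.22 and 0.770 in WT livers. Col3a1 read 42.0, 76.3 and 28.0 FPKM in KO tumors against 3.91, 4.16 and 4.63 in KO livers. In KO tumors 1 and 2 Cd68 was above all KO livers, while Clec4f and Vsig4 were below them. All 3 genes were above the KO livers in KO tumor 3. Of the 10 hepatocyte markers 1 rose (Apoa1) and 1 fell (Pck1) in WT tumors, against 8.01% and 8.96% of all tested entries. In KO tumors 1 fell (Serpina1c), against 5.17% of all tested entries. In KO against WT liver Ttr rose (0.53 ± 0.14, adjusted p = 0.043) and Fgb fell (-1.37 ± 0.33, adjusted p = 0.0343), and of the stellate cell and fibroblast markers Dcn rose (0.98 ± 0.23, adjusted p = 0.0331). No marker of these lists was under 0.1 FPKM in every library, and their part in the P450 values was not tested.

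The 24 entries that were not tested reached an FPKM of 1 in at most 2 libraries, with a highest value of 2.52, that of Cyp1a1 in KO tumor 1. Cyp1b1, an AHR target of tissues outside the liver, read 1.16, 1.82 and 0.245 FPKM in KO tumors and at most 0.388 in any other library. Cyp2b19, Cyp2w1, Cyp4a30b, Cyp4x1 and Cyp4x1os were listed at 0 in all 12 libraries. Of the entries that were tested, Cyp2b13, Cyp4f18 and Cyp4f16 were the lowest in WT liver, at means of 0.232, 0.283 and 0.824 FPKM, and Cyp2b13 and Cyp4f18 reached an FPKM of 1 only in tumors.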

How the data were processed

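RNA of 12 libraries (4 groups of 3) was sequenced after poly(A) selection with a kit that does not mark strand, so a gene and an overlapping antisense gene cannot be told apart. The authors deposited FPKM values per gene entry, and per the submitters' processing notes TopHat2 2.1.1, Cufflinks 2.2.1 and the mm10 genome were used. Neither the annotation behind the FPKM values nor the read depth is given in the sources used here, so no counting error could be computed. Members, gene lists and tests were chosen with earlier results of these data known.

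Entries with FPKM of at least 1 in at least 3 of 12 libraries (11671 of 24553) were tested on log2(FPKM + 1) with limma 3.58.1 in R 4.3.3, with an intensity trend and two-sided tests. Differences are on this scale, which understates changes of low genes, and are given ± SE, while levels are given ± SD. Each pairwise comparison used its own 6 libraries, and the interaction (the knockout difference in tumors minus that in liver) used all 12. P-values were adjusted by Benjamini-Hochberg over all tested entries, and an adjusted p below 0.05 was called. The fit was tested on simulated data. Named genes were the 3 most abundant of each subfamily, up to 10 rises and 10 falls per comparison (the 5 smallest p-values where fewer than 5 were called), up to 4 per gene list and a set of textbook P450 genes. Genes named for lying apart between groups without passing, for being near copies, or as cell markers were chosen after their values were seen, as was the omission of KO tumor 3. Coding sequence identities and coordinates came from GENCODE vM21 on GRCm38, and promoter windows from RefSeq GRCm38.p6. Alternatives were other pseudocounts and filters, other scalings, a single fit of all libraries, a replicate block and the omission of each library. Some genes of the regulator list are not reported here.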

Additional observations from a re-analysis of the deposited data

Results flagged for a closer look

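The knockout difference in tumors departed from that in liver for Cyp4f18 (interaction, a log2 difference of 1.72 ± 0.32, adjusted p = 0.0308 with limma). Its KO tumors read 8.35, 8.88 and 5.47 FPKM, above all other libraries. It reached an FPKM of 1 only in these and in WT tumor 2, so it was tested because of the values that make up the difference, and the test is not independent of that. For Cyp2r1 the interaction was -1.22 ± 0.26 (adjusted p = 0.0422). Its KO tumors read 4.86, 3.71 and 4.91 FPKM, below all other libraries.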

How the results depend on the processing

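Of 901 alternative runs of 50 called gene-and-comparison pairs, 644 kept the call, 257 lost it and 0 reversed. The calls of Cyp2c67 and Cyp2c44 in WT tumor against liver were not among these pairs. Leaving out each library gave 1 to 8 calls for KO against WT liver (10 with all), 10 to 27 for WT tumor against liver (26), 2 to 38 for KO tumor against liver (14), 0 to 11 for KO against WT tumor (0) and 0 to 18 for the interaction (2). Without a filter the counts were 1, 12 and 6 for the first 3 comparisons and 0 for the interaction. For KO against WT liver that 1 call was not among the 10 main calls. With a mean FPKM of at least 5, KO tumor against liver had 8 and the interaction 1. A single fit of all 12 libraries gave 2, 8, 31 and, for KO against WT tumor, 5. For KO against WT liver the single fit kept 1 of the 10 main calls. The interaction had 1 call with a common sum per library and 1 with the trend in transcript length removed. The replicate block left 1 call for KO against WT liver. Same-numbered samples of different groups correlated from -0.276 to 0.347, and samples of different number from -0.302 to 0.206. With 3 libraries per group these values cannot decide whether the numbers pair the samples. The cause of the changes in the calls was not tested. Reversals arose only among uncalled values when a library was left out: Cyp2b9 (-2.07 to 0.92), Cyp2a4 (-0.79 to 0.66) and Cyp1a2 (-1.88 to 0.098) between KO and WT tumors, Cyp2b9 in KO tumor against liver (-0.55 to 2.45) and Cyp1a2 in the interaction (-1.62 to 0.35). A common sum per library moved the median of all entries by over 0.1 in the tumor comparisons (-0.04 to 0.21 in WT, -0.02 to 0.34 in KO, 0.02 to 0.12 between KO and WT tumors, 0.02 to 0.13 in the interaction), while the P450 medians of tumor against liver were -0.34 and -0.72. Without read depth, low genes have no known counting error.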
